A study of Rattus norvegicus with 10 samples.

Results

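Of the 15313 RefSeq mRNAs with a probe on the array, 8 CC chemokine genes are described here: the ligands Ccl2, Ccl3, Ccl4, Ccl5, Ccl7 and Ccl20 and the receptors Ccr1 and Ccr2. They were taken by name, through the RefSeq accession of their probe. The choice was made with earlier results of these data known, and the study had listed Ccl7 and Ccr1 as altered. Each was read by 1 probe with 1 spot per array, and all 8 passed the filter on dim probes. Male Sprague Dawley rats were compared after morphine tolerance (MT group, rats 1 to 5) or normal saline (NS group, rats 6 to 10). MT rats received 10 μg of morphine in 10 μl into the lumbar intrathecal space 2 times a day for 7 days, and NS rats received the same volume of saline on the same schedule. The study's methods place tissue collection on the next day, soon after a further morning injection of morphine or saline. Whether a difference between the groups came from that last injection or from the earlier ones was not tested. All 10 rats thus shared the intrathecal injections, and no untouched animal was among the arrays. RNA of the lumbar enlargement of the spinal cord from each rat was hybridized to its own one-colour rat lncRNA and mRNA array.

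CC chemokines are small secreted proteins, named for a pair of adjacent cysteines, that draw leukocytes along a gradient through G protein-coupled receptors. Ccl2 and Ccl7 attract monocytes, mainly through Ccr2, and Ccl7 also binds Ccr1. Ccl3, Ccl4 and Ccl5 attract monocytes, T cells and natural killer cells, Ccl3 and Ccl5 partly through Ccr1, and Ccl20 acts through Ccr6. In the spinal cord these ligands can be made by astrocytes, microglia, neurons and blood-derived cells, and chemokine receptors have been studied in pain and in opioid analgesia. In whole tissue, fewer cells of a type and less RNA per cell cannot be told apart.

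The stretches before the gene starts are given as a description, and their part in how the genes varied between the rats was not tested. RefSeq promoter windows (GRCr8, 250 bases before to 50 from the start on) were given for 4 of the 8 genes, and the last 150 bases before the start are printed for 3 of them, 5′ to 3′ along the gene. Capitals mark a match to 1 of 3 motifs searched on both strands, TGANTCA (an AP-1 site), TATAAA (the TATA box) and the NF-kB consensus.
Ccl7 (chr10:67513945-67514094, plus strand): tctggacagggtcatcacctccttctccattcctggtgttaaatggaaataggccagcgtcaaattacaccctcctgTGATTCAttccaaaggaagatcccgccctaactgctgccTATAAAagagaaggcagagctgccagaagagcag
Ccl20 (chr9:91837009-91837158, plus strand): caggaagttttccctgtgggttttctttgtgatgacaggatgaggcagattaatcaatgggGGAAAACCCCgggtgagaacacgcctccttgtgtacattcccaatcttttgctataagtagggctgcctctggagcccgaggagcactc
Ccr1 (chr8:132439267-132439416, minus strand): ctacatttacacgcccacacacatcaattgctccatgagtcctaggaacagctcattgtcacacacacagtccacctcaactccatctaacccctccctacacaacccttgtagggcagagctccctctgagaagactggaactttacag
The window of Ccl7 held TGANTCA from base -73, a motif that reads the same on both strands, and TATAAA from base -34. The match to TGANTCA had T at its centre, and so was not the AP-1 consensus. The window of Ccl20 held the NF-kB consensus from base -89, on the opposite strand. The windows of Ccr1 and Ccr2 held none of the motifs, and no match overlapped another. Over all 33469 windows of 300 bases, 7.33% held TGANTCA, 14.2% held TATAAA and 4.18% held the NF-kB consensus. Ccl2 and Ccl7 are next to each other on chromosome 10, and so are Ccl3 and Ccl4.

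The labelled tissue was checked against its markers. On the normalized log2 intensity scale the myelin gene Mbp lay between 16.5 and 17.26, the neurofilament gene Nefl between 16.4 and 16.9, the astrocyte gene Gfap between 16.2 and 16.4, and Slc18a3, the vesicular acetylcholine transporter gene of motor neurons, between 12.2 and 13.1. Arrays that share a scan time are called a scan. Scan 1 held MT rats 1, 3, 4 and 5, scan 2 held MT rat 2 and NS rats 6, 7 and 10, and scan 3 held NS rats 8 and 9. The share of spots well above background was 75.2% to 81.7% on arrays of scans 1 and 2, and 56.7% and 61.8% on the arrays of scan 3. Group and scan therefore overlap, and the values within scan 2, the only one with both groups, are given beside the 8 genes and the marker lists. No 2 arrays held identical values.

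Ccr1 was the gene that separated the groups, and Ccl7 was the other one that met a fold and P criterion. By criteria of a linear fold above 1.5 and an unadjusted P below 0.05 in limma, 2 of the 8 genes (Ccl7 and Ccr1) were higher in MT and none was lower. Of the 13375 mRNAs tested, 1.61% met these criteria in the higher direction (216 mRNAs, against 132 lower, or 416 higher and 89 lower when arrays were scaled by their 75th percentile). With p adjusted by the Benjamini-Hochberg method over all 20286 RNAs tested, 1 of the 8 genes (Ccr1) passed 0.05 in limma, and 0.0972% of all mRNAs did so in the higher direction. All MT rats were above all NS rats for 1 of the 8 genes (Ccr1), and for 2.26% of all mRNAs. The median log2 difference was 0.66 over the 8 genes and -0.016 over all mRNAs, and 6 of the 8 differences were above 0, as were 46.8% of those of all mRNAs. Ccl7 and Ccr1 are in the study's own list of altered mRNAs, which was drawn from these arrays, so their counts are not independent evidence of a direction. The study also measured Ccl7, but not Ccr1, by RT-qPCR, and reported the same trend with a significant difference.

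**Figure D1:**
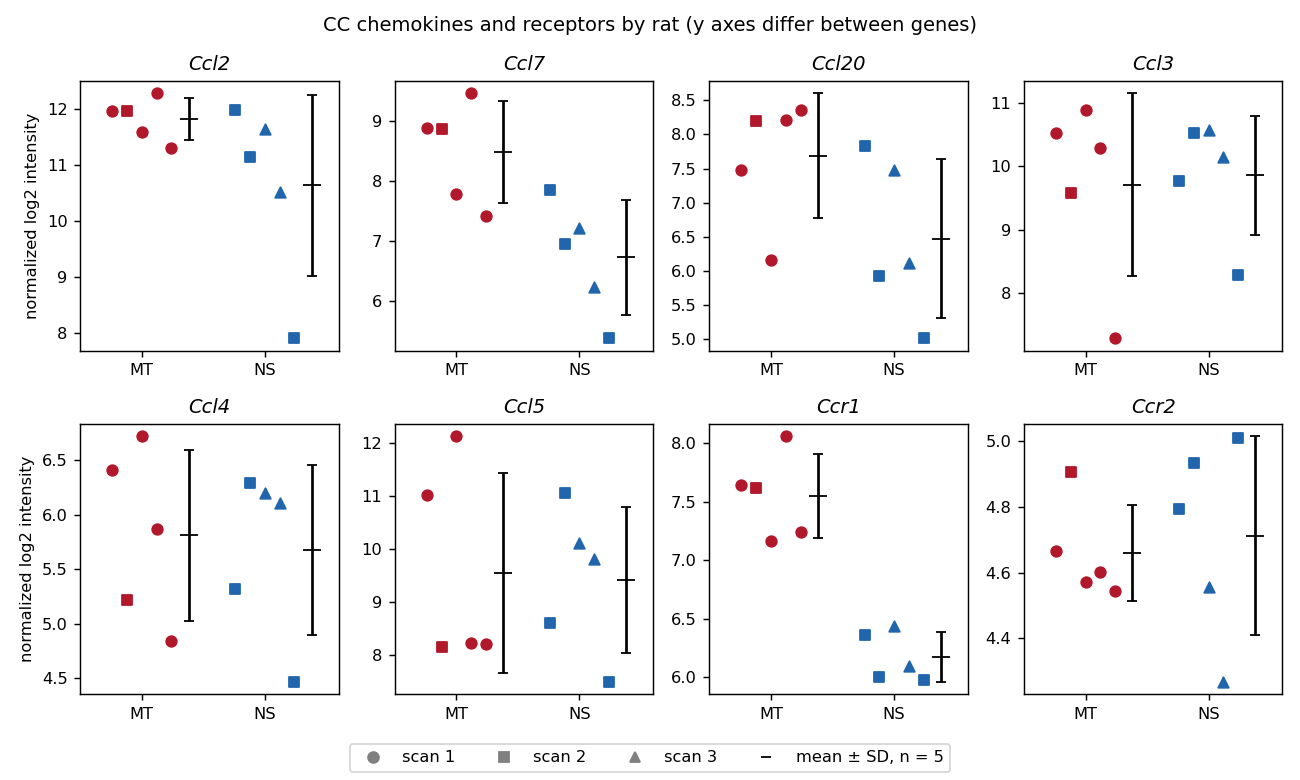
Normalized log2 intensity (y axis, a separate range for each gene) of the 8 genes in each MT and NS rat, 1 point per rat from left to right in the order of the rat numbers, with the symbol giving the scan and the bar the mean ± SD (n = 5). The Ccr1 values of MT (7.16 to 8.06) lie above those of NS (5.97 to 6.44), and the groups overlap for the other 7 genes.

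Among the ligands, the monocyte attractants Ccl2 and Ccl7 were both higher on average in MT, and the criteria were met by Ccl7. The normalized log2 intensity of Ccl7 was 8.88, 8.87, 7.79, 9.46 and 7.42 in MT rats 1 to 5 and 7.85, 6.96, 7.22, 6.24 and 5.39 in NS rats 6 to 10. MT rats 1, 2 and 4 lay above every NS rat, MT rats 3 and 5 lay below NS rat 6, and NS rat 10 was the lowest of all. The means were 8.48 ± 0.85 in MT and 6.73 ± 0.95 in NS (SD, n = 5), a difference of 1.75 (SE 0.51, 95% confidence interval 0.61 to 2.89) or 3.37-fold. The difference had an unadjusted P of 0.00658 and an adjusted p of 0.162 in limma, and the exact two-sided permutation test of the means gave p = 0.0238. Within scan 2 the MT rat lay 2.13 above the mean of the 3 NS rats. With scan as a fixed block, which takes the difference from scan 2, the unadjusted P was 0.0705 and the criteria were no longer met.

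Ccl2, whose protein is also known as monocyte chemoattractant protein, showed a wider spread in NS than in MT. Its normalized log2 intensity was 11.98, 11.98, 11.60, 12.29 and 11.32 in MT rats 1 to 5 and 11.99, 11.15, 11.64, 10.52 and 7.91 in NS rats 6 to 10. The MT rats kept within 0.97 of each other, whereas the NS rats spanned 4.08, with NS rat 6 above 4 of the 5 MT rats and NS rat 10 far below all others. The mean was 11.83 ± 0.38 in MT and 10.64 ± 1.63 in NS. The difference of 1.19 (SE 0.67, 95% confidence interval -0.30 to 2.68) did not pass in limma (unadjusted P = 0.106, adjusted p = 0.403) or in the exact permutation test (p = 0.111). Without NS rat 10 the difference was 0.51 (adjusted p = 0.395), and without NS rat 6 it was 1.53 and met the criteria, with an adjusted p of 0.289. The MT rat of scan 2 lay 1.63 above the mean of its 3 NS rats.

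Ccl20, which attracts Ccr6-bearing lymphocytes and dendritic cells, had an average difference close to that of Ccl2, with overlap in both directions. The normalized log2 intensity was 7.48, 8.20, 6.17, 8.22 and 8.36 in MT rats 1 to 5 and 7.83, 5.93, 7.48, 6.11 and 5.01 in NS rats 6 to 10. MT rats 2, 4 and 5 lay above every NS rat, while MT rat 3 was lower than NS rats 6 and 8. The means were 7.69 ± 0.92 in MT and 6.47 ± 1.16 in NS. The difference was 1.21 (SE 0.60, 95% confidence interval -0.11 to 2.54), with an unadjusted P of 0.0688 and an adjusted p of 0.342 in limma and an exact permutation p of 0.0794. Ccl20 met the criteria in 5 of 23 other settings, namely with scaling by the 75th percentile, with array weights, and without MT rat 3, NS rat 6 or NS rat 8. The difference within scan 2 was 1.95.

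Ccl3, Ccl4 and Ccl5, ligands that attract T cells as well as monocytes, varied widely between rats but not by group. For Ccl3 the normalized log2 intensity was 10.53, 9.58, 10.89, 10.29 and 7.28 in MT rats 1 to 5 and 9.77, 10.53, 10.57, 10.15 and 8.28 in NS rats 6 to 10. MT rat 5 and NS rat 10 were each far below the other 4 rats of their group. For Ccl4 the values were 6.41, 5.22, 6.72, 5.87 and 4.84 in MT rats 1 to 5 and 5.32, 6.29, 6.20, 6.11 and 4.47 in NS rats 6 to 10. The same rats, MT rat 5 and NS rat 10, were the lowest of their groups. For Ccl5 the values were 11.03, 8.14, 12.12, 8.23 and 8.20 in MT rats 1 to 5 and 8.61, 11.05, 10.11, 9.82 and 7.49 in NS rats 6 to 10. MT rats 1 and 3 and NS rat 7 were high and MT rats 2, 4 and 5 and NS rats 6 and 10 were low, and the groups overlapped for all 3 ligands.

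The group means of these ligands were close and their intervals wide. Ccl3 averaged 9.71 ± 1.44 in MT and 9.86 ± 0.94 in NS, a difference of -0.15 (SE 0.69, 95% confidence interval -1.69 to 1.40, adjusted p = 0.931). Ccl4 averaged 5.81 ± 0.79 and 5.68 ± 0.78, with a difference of 0.13 (SE 0.45, 95% confidence interval -0.86 to 1.13, adjusted p = 0.901). Ccl5 averaged 9.54 ± 1.89 and 9.41 ± 1.38, with a difference of 0.13 (SE 0.94, 95% confidence interval -1.97 to 2.23, adjusted p = 0.955). Exact permutation tests gave p = 0.817, 0.77 and 0.913 in the same order. As a linear ratio of MT to NS the interval of Ccl5 ran from 0.256 to 4.68. Within scan 2 the MT rat differed from the mean of the NS rats by 0.054 for Ccl3, -0.14 for Ccl4 and -0.90 for Ccl5.

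The spread between rats of 1 group was large for all 6 ligands. The SD pooled over the groups was 1.66 for Ccl5, 1.22 for Ccl3, 1.18 for Ccl2, 1.05 for Ccl20, 0.90 for Ccl7 and 0.78 for Ccl4 on the log2 scale. The median over all mRNAs was 0.193, and these ligands stood at percentiles 95.1 (Ccl4) to 99.9 (Ccl5) of all mRNAs. The receptors varied less, with a pooled SD of 0.295 for Ccr1 and 0.237 for Ccr2, at percentiles 70.2 and 60.5. The difference of 1.19 for Ccl2 thus had a standard error of 0.67, and that of 1.37 for Ccr1 one of 0.17.

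Ccr1, a receptor for Ccl3, Ccl5 and Ccl7 on monocytes, neutrophils and other leukocytes, was higher in MT. Its normalized log2 intensity was 7.64, 7.62, 7.16, 8.06 and 7.24 in MT rats 1 to 5 and 6.36, 6.01, 6.44, 6.10 and 5.97 in NS rats 6 to 10. The lowest MT rat (rat 3) lay above the highest NS rat (rat 8), so the groups did not overlap. The mean was 7.55 ± 0.36 in MT and 6.18 ± 0.21 in NS, a difference of 1.37 (SE 0.17, 95% confidence interval 0.98 to 1.76) or 2.58-fold. The adjusted p was 0.0287 in limma, and the exact permutation test gave p = 0.00794, the smallest that 252 assignments of 5 and 5 rats can give. In scan 2 the MT rat lay at 7.62 and the 3 NS rats between 5.97 and 6.36, a difference of 1.51.

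The size of the Ccr1 difference moved less between settings than its adjusted p. Over 23 other settings the difference ranged from 0.88 to 1.51 and met the fold and unadjusted P criteria in all 23. The adjusted p rose to 0.573 with scan as a fixed block and 0.210 with scan as a random block, settings in which no RNA of the array passed, and to 0.119 without the arrays of scan 3. It was 0.134, 0.0639 and 0.0558 without MT rats 1, 4 and 5, and 0.0618, 0.0753 and 0.0858 without NS rats 7, 8 and 9. It stayed below 0.05 without MT rat 2 or 3 and without NS rat 6 or 10.

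Ccr2, the main receptor for Ccl2 on monocytes, was dim. Its normalized log2 intensity was 4.67, 4.91, 4.57, 4.60 and 4.54 in MT rats 1 to 5 and 4.79, 4.93, 4.56, 4.27 and 5.01 in NS rats 6 to 10. The spot was well above background in 5 of 5 MT rats and 3 of 5 NS rats, and the MT values all lay within the range of the NS values. The mean was 4.66 ± 0.15 in MT and 4.71 ± 0.30 in NS. The difference of -0.054 (SE 0.14, 95% confidence interval -0.37 to 0.26) did not pass in limma (adjusted p = 0.872) or the exact permutation test (p = 0.73). With arrays scaled by the 75th percentile in place of quantile normalization it was 0.36, so no direction is given for Ccr2. In scan 2 the MT rat lay at 4.91 and the 3 NS rats between 4.79 and 5.01.

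The further CC genes listed met neither threshold. Of 14 further CC ligands, 12 had a probe, 9 passed the filter and none of the 9 met the criteria in either direction (2.6% of all mRNAs did) or an adjusted p of 0.05 (0.232% did). Their median difference was 0.26, with 7 above 0 and 2 below. Of 7 further CC receptors, 6 had a probe and 5 passed the filter, again with none called and a median of 0.35. This median was the value of Ccr3, which passed the filter through the MT arrays alone (well above background in 5 MT and 0 NS rats). Of 4 atypical receptors, which bind chemokines without G protein signalling, 2 passed the filter and none was called. No probe was matched for Ccl1, Ccl12, Ccr8, Ackr1 and Ackr4.

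Some of these genes are named for their role or for an unadjusted P below 0.05, and were chosen after their values were seen. Ccr6, the receptor for Ccl20, differed by 0.079 on the normalized log2 scale (SE 0.13, adjusted p = 0.791). Ccl27, a skin-homing chemokine, differed by 0.22 (unadjusted P = 0.0375, adjusted p = 0.279), and Ccr7, which guides lymphocytes and dendritic cells to lymph nodes, by 0.38 (unadjusted P = 0.0229, adjusted p = 0.24). These 2 were the only ones of the 16 further CC genes tested with an unadjusted P below 0.05. Ccl6, a macrophage chemokine, differed by 0.65 (adjusted p = 0.377) and the atypical receptor Ccrl2 by -0.61 (adjusted p = 0.328). Ccr3, the eotaxin receptor, was well above background in 5 of 5 MT rats and in 0 of 5 NS rats. For a bound, NS was given the higher of its signal and the lowest signal well above background on each array. The MT mean of Ccr3 was then 1.03-fold that of NS, and its interval in limma included 0 (-0.17 to 0.87, adjusted p = 0.48). Ccl28, which did not pass the filter, was well above background in 4 of 5 MT rats and 0 of 5 NS rats. By the same bound its MT mean was 1.38-fold that of NS. Its values overlapped (3.05 to 4.24 in MT, 1.51 to 4.32 in NS), with p = 0.183 in the exact permutation test. The share of all spots well above background was also lower in NS (56.7% to 77.4%) than in MT (79.0% to 81.7%).

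**Figure D2:**
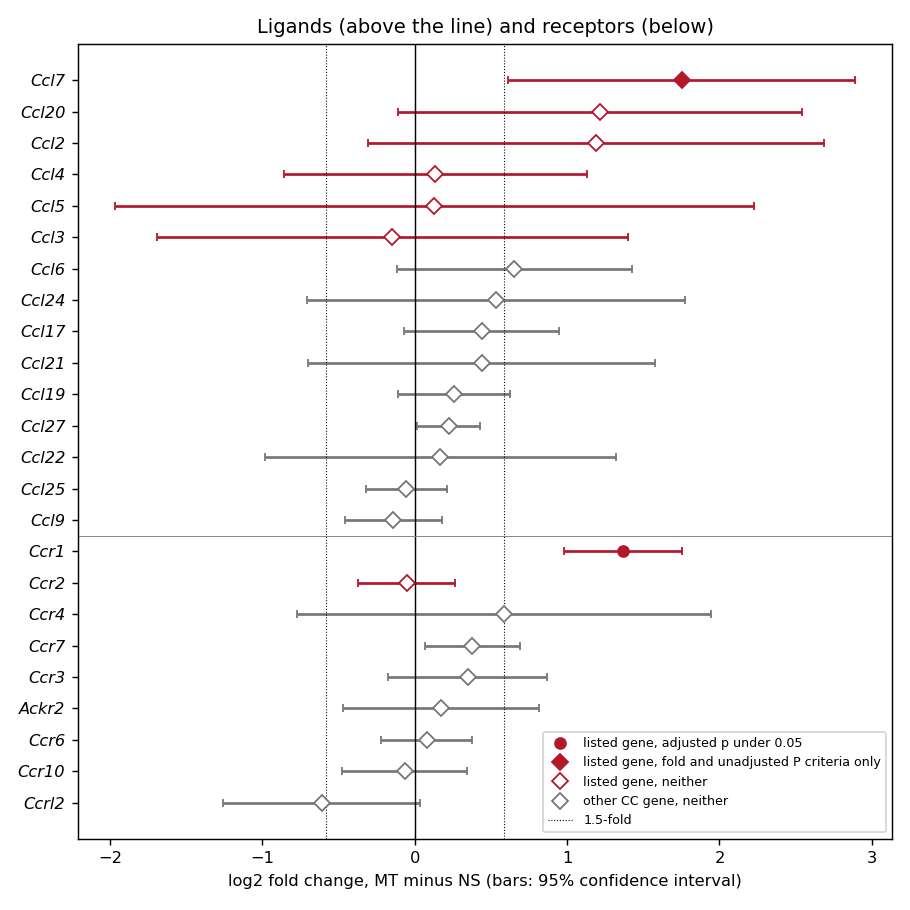
Difference between MT and NS in normalized log2 intensity (x axis, points, with 95% confidence intervals from limma as bars) for 24 CC ligand and receptor genes that passed the filter, with the 8 genes described here in red and the others in grey. The intervals of Ccl7 (0.61 to 2.89) and Ccr1 (0.98 to 1.76) lie above 0, and those of the other 6 red genes include 0.

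None of the genes listed for signalling inside the cell after a CC receptor binds its ligand was called. The list held 25 genes for G protein subunits, phosphoinositide 3-kinase and phospholipase C, the small GTPases Rac1 and Rac2 and their exchange factors, Src-family kinases, arrestins and receptor kinases, of which 20 had a probe and all 20 passed the filter. These 20 included no phosphoinositide 3-kinase gene, and Vav1 as the only exchange factor gene. None met the criteria (2.6% of all mRNAs did) or an adjusted p of 0.05 (0.232% did), 7 differences were above 0 and 13 below, and the median was -0.071. Lyn, a Src-family kinase, differed by -0.55 (unadjusted P = 0.0484, adjusted p = 0.303) and Jak2, a kinase of cytokine receptors, by 0.34 (unadjusted P = 0.0493, adjusted p = 0.304), the 2 with an unadjusted P below 0.05.

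The rats that were high or low for 1 ligand were often so for others. NS rat 10 had the lowest value of the 10 rats for 6 of the 8 genes (Ccl2, Ccl4, Ccl5, Ccl7, Ccl20 and Ccr1). MT rat 4 had the highest value for Ccl2, Ccl7 and Ccr1, and MT rat 3 for Ccl3, Ccl4 and Ccl5. In MT rat 5, Ccl20 was the highest of the 10 rats and Ccl3 the lowest. The array of NS rat 10 had 77.4% of its spots well above background, the highest share in NS, and a median intensity of 75.1.

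**Figure D3:**
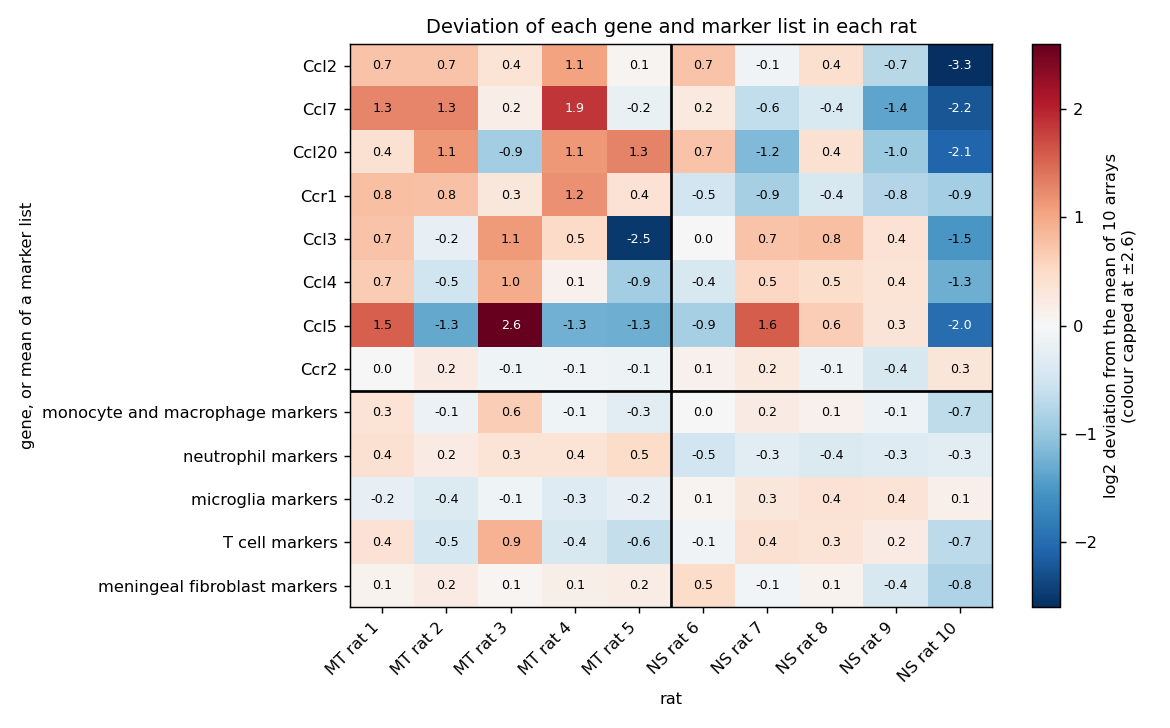
Deviation of each gene, or of the mean over a marker list, from its mean over the 10 arrays, in log2 units (colour and printed value), with rats in columns and the line between MT and NS. Ccl3, Ccl4 and Ccl5 are high in MT rat 3 and low in MT rat 5 and NS rat 10. So are the T cell list and the monocyte and macrophage list. In contrast, Ccr1 is above its mean in all MT rats and below it in all NS rats.

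Correlations over the 10 rats are given as a description, without a test, for 28 pairs of genes. The rats share scans and groups, so that r was also taken after the group means were removed. Ccl3 and Ccl4 correlated with r = 0.89 (Spearman's rho 0.93), or 0.90 within the groups. Ccl4 and Ccl5 had r = 0.91 (rho 0.96), or 0.91 within the groups. Without the 2 rats farthest from the median of the first gene, these values were 0.97 and 0.91.

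Ccl7 was also tied to Ccl2 and to Ccr1. Ccl2 and Ccl7 had r = 0.86 (rho 0.93), 0.84 within the groups and 0.88 without the 2 farthest rats. Ccl7 and its receptor gene Ccr1 had r = 0.89 (rho 0.90), 0.83 within the groups and 0.84 without the 2 farthest rats. The third pair, Ccl2 and Ccr1, had r = 0.63 (rho 0.76), 0.54 within the groups and 0.63 without the 2 farthest rats. Ccl20 had 0.70 with Ccl2, 0.66 with Ccl7 and 0.65 with Ccr1 within the groups, and 0.56, 0.57 and 0.51 over all rats without the 2 farthest. Ccl5 had 0.049 with Ccl7, -0.28 with Ccr1 and -0.37 with Ccl20 within the groups. Across the rest, Ccl4 had 0.53 with Ccl2, and Ccl3 had 0.57 with both Ccl2 and Ccl7 within the groups, as high as Ccl2 with Ccr1. For Ccl3 the values were 0.25 with Ccl2 and -0.20 with Ccl7 over all rats without the 2 farthest.

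**Figure D4:**
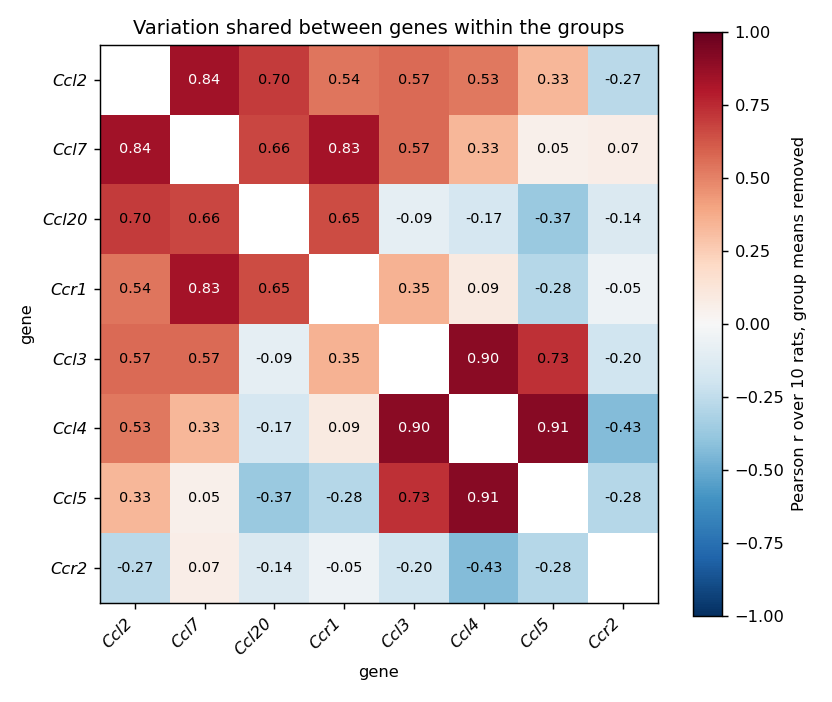
Pearson r over the 10 rats between each pair of the 8 genes after removing the group means (colour and printed value). Pairs among Ccl3, Ccl4 and Ccl5 lie between 0.73 and 0.91, pairs among Ccl2, Ccl7, Ccl20 and Ccr1 between 0.54 and 0.84, pairs across these sets between -0.37 and 0.57, and Ccr2 has no value above 0.066.

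The 3 genes most like each of the 8 were taken by the highest Pearson r over the 10 arrays among the mRNAs that passed the filter. Each r is thus the highest of many, and no background for such a highest value was taken. For Ccl5 they were Nkg7, a granule protein of cytotoxic lymphocytes (r = 0.989), Phf11 (0.988) and Cd2, an adhesion molecule of T cells (0.987). For Ccl4 they were Slfn4 (0.988), Zc3hav1, an antiviral zinc finger protein (0.976), and the interferon-induced Oasl (0.965). For Ccl3 they were RT1-Ba, a class II histocompatibility gene (0.952), Slamf9 (0.950) and Plek, a protein kinase C substrate of blood cells (0.930). Without the 2 rats farthest from the median of Ccl3 these were 0.794, 0.869 and 0.909. None of these 9 genes differed between the groups by more than 0.49 on the log2 scale.

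Among the 3 genes most like Ccl2 were the nucleotide receptor gene P2ry2 (r = 0.97) and Cxcl1, a neutrophil attractant (0.97). Without the 2 rats farthest from the median of Ccl2 these fell to 0.771 and 0.606. Ccl7 was most like the scaffold gene Iqgap1 (0.969), Bst1 (0.959) and Clec4e, a pattern recognition receptor of myeloid cells (0.952). Ccl20 was most like the pentraxin Ptx3 (0.989), the immediate early gene Nr4a3 (0.979) and the protease gene Adamts1 (0.976). Ccr1 was most like Akr1b8 (0.966), the mannose receptor gene Mrc1 (0.966) and the AP-1 family gene Batf (0.965). After removal of the group means these were 0.827, 0.927 and 0.878. Cd2 and Mrc1 are also on the T cell and macrophage marker lists used here. Ccr2, near background, was most like Tor4a (0.971), Kap (0.968) and Jph1 (0.968).

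Markers of cells that carry or make these proteins also moved with the groups or between rats. Of 14 neutrophil markers, 9 passed the filter and 4 of these were higher in MT by the fold and P criteria (1.61% of all mRNAs were), led by S100a8 (a difference of 1.44, adjusted p = 0.121) and Np4 (1.31, adjusted p = 0.0930). The mean of the list ran from 6.72 to 6.97 in MT and from 6.01 to 6.21 in NS on the log2 scale, and its summed intensity from 3865 to 5477 and from 3044 to 6109. In scan 2 the mean was 6.72 in the MT rat and 6.01 to 6.21 in the NS rats. The study also measured S100a8 by RT-qPCR, and reported a trend without a significant difference. The defining markers Ltf and Mmp8 were not well above background on any array. Of 14 monocyte and macrophage markers, 8 passed and 4 were higher by the criteria (against the same 1.61%), led by Cd14 (2.14-fold, adjusted p = 0.0899) and Lyz2 (a log2 difference of 0.77, adjusted p = 0.106), with the other 4 below 0. The list mean ran from 11.53 to 12.44 in MT and from 11.15 to 12.03 in NS, and its summed intensity from 71989 to 127090 and from 47139 to 78108. In scan 2 the mean was 11.66 in the MT rat and 11.15 to 12.03 in the NS rats. Cd163 was not well above background on any array.

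Some microglial markers were lower in MT. Of 12 markers 11 had a probe, all 11 passed the filter, and 4 were lower by the criteria, as were 0.987% of all mRNAs, led by Tmem119 (a difference of -1.24, adjusted p = 0.0555) and Fcrls (-1.04, adjusted p = 0.119). Gpr34, with a difference of -0.63, was the 1 microglial marker past an adjusted p of 0.05 (adjusted p = 0.0414). The list mean ran from 11.24 to 11.50 in MT and from 11.68 to 11.98 in NS, and its summed intensity from 72448 to 84807 and from 89311 to 115870. In scan 2 the mean was 11.24 in the MT rat and 11.68 to 11.90 in the NS rats. Over the 10 rats Ccr1 had r = 0.88 with the neutrophil list mean and -0.90 with the microglial one, and -0.47 and -0.35 after removal of the group means. Within the groups the highest r of Ccr1 with any list was 0.76, with the motor neuron list (0.62 over all rats). For Ccl7 it was 0.75, with the meningeal fibroblast list (0.77 over all rats). The part of these cell types in the Ccr1 and Ccl7 differences was not tested.

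T cell markers did not separate the groups but varied with Ccl5. Of 12 markers 11 passed the filter, and none of the 10 with a fitted difference met the criteria. The list mean ran from 6.62 to 8.14 in MT and from 6.57 to 7.64 in NS, and its summed intensity from 1539 to 5092 and from 1272 to 2919. In scan 2 the mean was 6.77 in the MT rat and 6.57 to 7.64 in the NS rats. Its r over the 10 rats was 0.97 with Ccl5 (rho 0.99, and 0.98 within the groups), 0.92 with Ccl4 (rho 0.98, and 0.93 within the groups) and 0.80 with Ccl3 (rho 0.92, and 0.80 within the groups). Without the 2 rats farthest from the median of the chemokine, r was 0.95 for Ccl5, 0.88 for Ccl4 and 0.83 for Ccl3. The ties were not particular to T cells. With the monocyte and macrophage list r was 0.91 for Ccl5, 0.89 for Ccl4 and 0.77 for Ccl3 (0.94, 0.91 and 0.82 within the groups). With the endothelial list r was 0.79 for Ccl5, 0.87 for Ccl4 and 0.79 for Ccl3 (0.83, 0.92 and 0.80 within the groups). For Ccl2 the highest r was with the meningeal fibroblast list, 0.91, which was 0.50 without the 2 farthest rats, and for Ccl20 it was with the motor neuron list, 0.92, which was 0.86 without them. The part of any of these cell types in the spread of the chemokines was not tested.

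**Figure D5:**
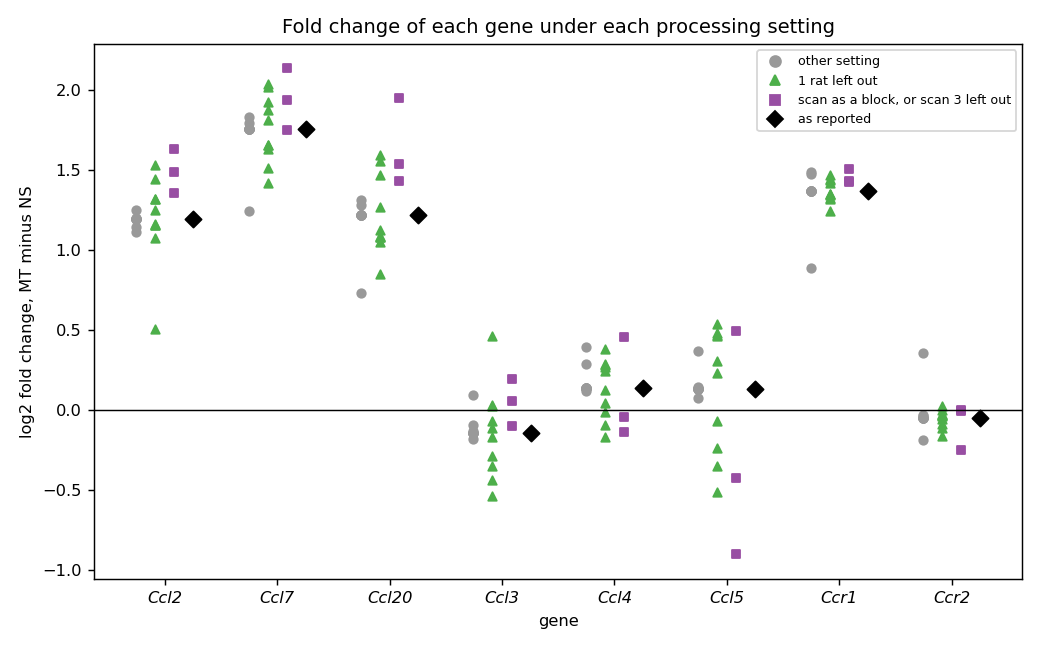
Difference between MT and NS in normalized log2 intensity (y axis) of each gene under each processing setting, with the reported value as a diamond and 1 point for every other setting. Ccl2, Ccl7, Ccl20 and Ccr1 lie above 0 in each of 23 settings, Ccl3, Ccl4 and Ccl5 lie on both sides of 0, and Ccr2 does so in 22 settings.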

How the data were processed

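RNA of 10 lumbar enlargements was measured on 1 Agilent array each. The authors scanned the arrays and extracted the spots with Feature Extraction (11.0.1.1 in the submitters' processing notes), and deposited for every spot an intensity after background subtraction, with flags for outliers and for signal over background, and 1 table of quantile-normalized log2 values. From the spot intensity, values below 1 were set to 1 (the lowest was 1.71), and log2 values underwent quantile normalization in limma 3.58.1 (R 4.3.3). Spots marked as outliers were dropped, and spots of a probe and then probes of an RNA were averaged. An RNA stayed in where over 50% of its spots exceeded background clearly, by the flag, on at least 5 arrays, which left 20286 of 24674. Symbols came from RefSeq accessions, which matched 14264 of 15313 mRNAs.

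MT was compared with NS by limma over all RNAs, with Benjamini-Hochberg adjustment over all of them. Single genes were also tested by exact two-sided permutation of group means. The alternatives tried were the 75th percentile for scaling, normexp on the median spot signal with an offset of 50 (chosen after seeing the data, as the files used here hold no mean spot signal), the deposited table, other filters, outlier spots kept, the methods' t-test, a variance trend, array weights, scan as a block, the arrays of scan 3 left out, each probe on its own, a log2 criterion, and each rat left out. The steps were tested on simulated arrays. Python 3.11.15 with matplotlib 3.10.9 drew the figures.

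The genes and lists were chosen with earlier results of these data known. All 8 genes are named. Of the other CC, atypical receptor and signalling lists, genes past a threshold were to be named, and of each marker list past a threshold the 2 with the largest fold, apart from the defining markers not above background and the tissue checks. The marker lists of B cells, erythrocytes, endothelium, meningeal fibroblasts, astrocytes, oligodendrocytes, neurons, motor neurons, dorsal root ganglion and skeletal muscle served as checks. Some genes are not reported here.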

Additional observations from a re-analysis of the deposited data

How the results depend on the processing

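The count of all RNAs past an adjusted p of 0.05 (40 as reported) was 143 with normexp, 66 with the deposited table, 12 without the filter, 120 with the filter on all 10 arrays, 117 with a variance trend, 183 with array weights, 0 with scan as a fixed or a random block (839 and 1421 RNAs then had an unadjusted P below 0.05), 2 without scan 3, and 0 to 84 when 1 rat was left out. The cause of these shifts was not tested, and some of the settings had fewer arrays. The number of the 8 genes past an adjusted p of 0.05 (1, Ccr1) was 0 with scan as a fixed or random block and without scan 3, and 0 to 1 with 1 rat left out. Those meeting the fold and P criteria (2) numbered 1 with scan as a fixed block (Ccr1), 1 when a log2 difference above 1.5 was asked for (Ccl7), and 2 to 4 with 1 rat left out (4 without NS rat 6). Without NS rat 6, 276 of all mRNAs met these criteria in the higher direction, against 216 with all rats. The genes without overlap (1) numbered 1 to 2 with 1 rat left out, settings for which the share over all mRNAs was not taken. Other CC genes meeting the criteria (0) numbered 2 with scaling by the 75th percentile (Ccl6 and Ccr3), 1 with the deposited table (Ccr3), 1 with array weights (Ccl6), 2 without scan 3 (Ccl6 and Ccr3), and 0 to 1 with 1 rat left out (Ccl6 or Ccrl2). The sign turned for Ccl3 with array weights (0.090), scan as a fixed block (0.054) and without scan 3 (0.19), for Ccl4 with scan as a fixed (-0.14) or random (-0.048) block, for Ccl5 in the same 2 settings (-0.90 and -0.43), and for Ccr2 with scaling by the 75th percentile (0.36) and scan as a random block (0.00084). With 1 rat left out the differences ranged from -0.54 to 0.46 for Ccl3, -0.17 to 0.38 for Ccl4, -0.52 to 0.54 for Ccl5 and -0.16 to 0.020 for Ccr2. Ccl2, Ccl7, Ccl20 and Ccr1 kept their sign in all 23 settings. The filter on all 10 arrays gave no value for Ccr2. No paired analysis was possible because the MT rats are numbered 1 to 5 and the NS rats 6 to 10, so that the groups share no number. Arrays have no read depth, and the precision is limited by 5 rats per group and, for Ccr2, Ccr3 and Ccl28, by a signal near background.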

Other observations

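Among the other cell markers, 2 of the 5 B cell genes that passed the filter were lower in MT by the fold and P criteria (0.987% of all mRNAs were), Cd22 (a difference of -1.05, adjusted p = 0.158 in limma) and Cd79b (-0.89, adjusted p = 0.259). Cd79b was near background, with a signal well above it in 3 of 5 MT rats and 2 of 5 NS rats. The B cell list mean ran from 5.30 to 5.81 in MT and from 5.73 to 6.47 in NS on the log2 scale. NS rats 8 and 9, the arrays of scan 3, had 6.41 and 6.47, and the NS rats of scan 2 had 5.73 to 5.78, within the range of the MT rats. No gene met the criteria in the erythrocyte, endothelial, meningeal fibroblast, astrocyte, oligodendrocyte, neuron, motor neuron and dorsal root ganglion lists or in the skeletal muscle list.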
